A study of Mus musculus with 21 samples.

Results

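The 6 genes described here encode regulators of CD4+ T cell identity and the cytokine that goes with the T helper 2 (Th2) fate: Gata3, Rora, Runx1, Zbtb7b, Ahr and Il4. They were chosen by name and matched to the 47643 genes of the count table, of which 15300 had at least 10 counts over all samples. Of the 6, 5 passed this minimum and carried a name in the table of log values, while Il4 had no counts in any library and was matched by its gene identifier. Messenger RNA was counted by 3′ sequencing in splenic CD4+ T cells, purified by flow cytometry, of mice labelled Tg4 Tiger Nr4a3-Tocky. In every group, Control included, these mice carry the transgenic Tg4 receptor, which recognises a peptide of myelin basic protein (MBP), a green fluorescent reporter of Il10, and a Timer protein driven by Nr4a3 that is blue when new and red when mature. The [4Y] form of that peptide was injected subcutaneously, without adjuvant, at 0.8 µg or 80 µg, and spleens were taken 4 h, 12 h or 24 h later, whereas the Control mice were untreated. Each of the 7 groups had 3 libraries from separate mice. Per the study's methods, the gate was blue positive and red negative for the 4 h cells, positive for both colours at 12 h, and red positive only for the 24 h cells, so time and gate cannot be told apart. The gate of the Control cells is not given in the sources used here, and mouse ages are not given either. Cells of the same gate are therefore compared only between the doses at a single time. A single receptor specificity is studied, and cells that did not pass the gate were not measured.

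Library totals lay between 2352800 and 6244279 counts, with a median of 3571896. The cell type label was checked on marker genes. The summed level of 8 CD4 T cell markers lay between 1516 and 3715 CPM (the gene's share of all counts in a library, times 1e6) in the 21 libraries, and none of the 8 was at 0 in any group. This sum was 3516 to 3715 CPM in Control, above every immunised library. With 0.8 µg and then 80 µg it was 1999 to 2159 and 1617 to 1727 CPM at 4 h. At 12 h it was 1516 to 1544 and 1841 to 2015 CPM, and at 24 h the doses overlapped. The part of this sum in the other results was not tested. The summed level of 6 B cell markers reached 37.8 to 80.6 CPM in the Control libraries and 2.03 to 42.4 CPM in the immunised ones. The largest sum of another cell type was that of 6 erythroid markers, at 5.31 to 212 CPM, with wide ranges within groups. The sums of 6 monocyte and macrophage, 5 dendritic cell and 4 NK cell markers reached at most 28.2, 3.25 and 6.80 CPM. The summed level of 6 basophil and mast cell markers, cells that can also make IL-4, was between 0 and 1.01 CPM.

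GATA3 is the transcription factor that specifies Th2 cells and activates the Th2 cytokine genes, and it is also required for CD4+ T cell development. RORα, encoded by Rora, is a nuclear receptor that promotes the T helper 17 (Th17) fate, and AHR, the aryl hydrocarbon receptor, is a ligand-activated factor that promotes IL-22 production and modulates Th17 and regulatory cells. ThPOK, the product of Zbtb7b, commits thymocytes to the CD4 lineage and represses CD8 lineage genes in mature CD4+ cells, whereas RUNX1 binds the Cd4 silencer and shapes both lineages together with its partner CBFβ. In bulk samples, fewer cells that carry a transcript and less of it in each cell cannot be told apart.

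The promoters of Gata3 and Rora, the 2 members called between doses at both 4 h and 12 h, and of the member with no counts, Il4, are shown to give the sequence before an annotated start. Of the 6 members, 5 had an entry in the RefSeq promoter table on GRCm38.p6; Ahr had none. Each sequence holds the 250 bases before the start, read 5′ to 3′ along the gene's strand. Capitals mark matches, on either strand, to any of 6 motifs. These were GGAAA, the core bound by NFAT, TGANTCA, the element bound by the AP-1 dimers, AGATAA, a site preferred by the GATA factors, TGTGGT, the core recognised by RUNX proteins, AGGTCA, the element of nuclear receptors such as the ROR family, and GCGTG, the core of the element bound by AHR.
Gata3: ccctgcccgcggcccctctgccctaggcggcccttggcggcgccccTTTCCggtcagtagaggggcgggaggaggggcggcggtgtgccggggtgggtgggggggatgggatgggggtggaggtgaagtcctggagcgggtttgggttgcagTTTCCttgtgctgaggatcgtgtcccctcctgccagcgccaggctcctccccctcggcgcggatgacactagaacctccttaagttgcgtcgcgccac
Rora: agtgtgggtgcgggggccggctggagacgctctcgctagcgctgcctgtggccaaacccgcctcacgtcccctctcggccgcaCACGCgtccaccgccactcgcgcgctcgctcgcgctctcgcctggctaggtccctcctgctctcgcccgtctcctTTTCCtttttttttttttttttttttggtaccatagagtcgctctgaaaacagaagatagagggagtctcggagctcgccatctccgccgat
Il4: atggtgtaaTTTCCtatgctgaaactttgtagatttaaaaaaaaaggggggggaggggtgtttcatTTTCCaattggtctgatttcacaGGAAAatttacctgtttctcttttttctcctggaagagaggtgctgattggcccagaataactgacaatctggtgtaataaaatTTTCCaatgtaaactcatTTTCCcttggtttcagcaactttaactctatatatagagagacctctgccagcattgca
The Gata3 window is chr2:9878601-9878850 on the minus strand, and its capitals are 2 GGAAA matches. The Rora window is chr9:68653536-68653785 on the plus strand and holds 1 GGAAA match and 1 GCGTG match. The Il4 window is chr11:53618666-53618915 on the minus strand, and holds 5 GGAAA matches. It precedes the outer of 2 Il4 starts in the table, and the window before the other start, chr11:53617339-53617588, is not printed and held no match to any of the motifs. None of the other motifs was found in the 3 windows shown. Across 32851 promoters of the same length, GGAAA was found in 55.57%, the AP-1 element in 6.75%, the GATA site in 9.99%, the RUNX core in 14.05%, the nuclear receptor element in 14.02% and GCGTG in 28.16%. The matches describe letters only, and counts of 3′ ends cannot tell which start a transcript came from.

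High and low antigen dose were compared at each time to ask which lineage regulators distinguish the strength of stimulation. At 4 h, Rora and Ahr were higher with 80 µg than with 0.8 µg while Gata3 and Zbtb7b were lower. At 12 h the opposite movement of Rora and Gata3 was still present and Ahr and Zbtb7b no longer passed the test, and at 24 h no member was called. A gene was called when its DESeq2 adjusted p was under 0.05 and its log2 fold change, shrunken towards 0 by a normal prior, was beyond 1 in either direction. By this rule 4 of the 6 members were called at 4 h, 2 higher and 2 lower, where 5.55% of the 11442 genes tested were called, 2.95% higher and 2.60% lower. At 12 h, 2 members were called, 1 higher and 1 lower, against a background of 2.73% (1.80% higher and 0.926% lower). At 24 h none was called by DESeq2, against 1.46% of all genes tested (0.802% higher and 0.654% lower). Gata3 alone had an unadjusted p under 0.05. Its adjusted p (0.00174 by DESeq2) passed as well, without overlap between the doses, and only its fold change was under the threshold. On the adjusted p alone, 5.13% of all genes tested passed at 24 h. At 24 h edgeR also called none. Marker sums of some other cell types did not overlap between the doses. At 4 h the monocyte and macrophage sum was 10.04 to 28.2 CPM with 0.8 µg and 2.08 to 7.44 CPM with 80 µg. At 24 h, with 0.8 µg and then 80 µg, the B cell sum was 26.98 to 36.3 and 7.53 to 15.99 CPM, the NK cell sum 5.35 to 6.80 and 0.480 to 1.63 CPM, the dendritic cell sum 0.972 to 3.25 and 0 to 0.160 CPM, and the sum of 2 CD8 markers 34.3 to 40.9 and 20.06 to 28.8 CPM. Their part in the dose differences was not tested.

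**Figure D1:**
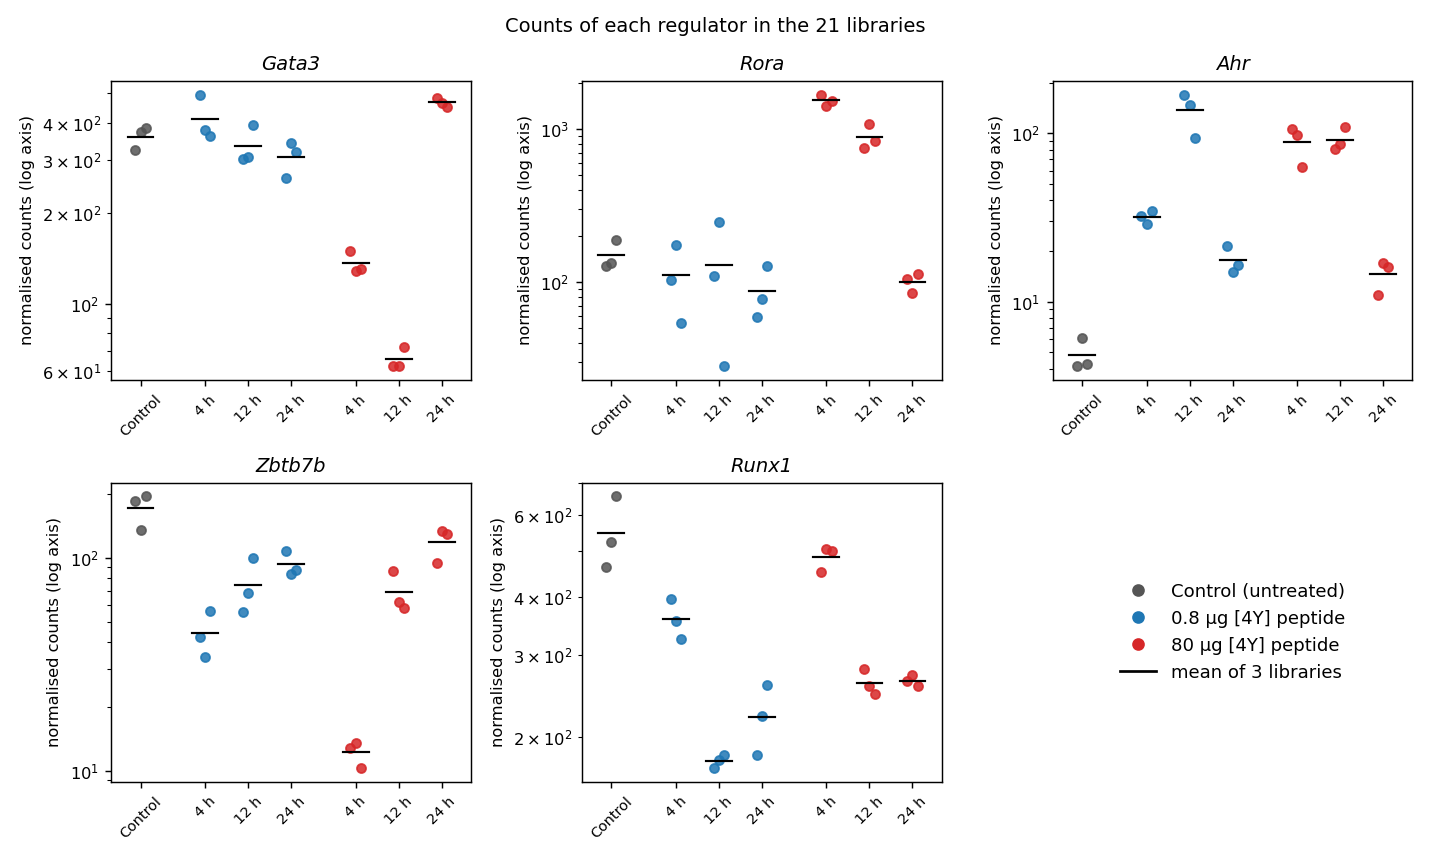
Normalised counts (counts divided by the library's size factor, log axis) of the 5 detected members in each of the 21 libraries, with Control in grey, 0.8 µg in blue and 80 µg in red, and a bar at the mean of 3 libraries. With 80 µg, Gata3 sits between 62.1 and 150.5 at 4 h and 12 h, below every other library, while Rora sits between 747 and 1681, above every other library.

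Gata3 (ENSMUSG00000015619) lies at chr2:9857078-9890034 on the minus strand of GRCm38. Normalised counts of Gata3 were 326, 371 and 383 in the 3 Control libraries. With 0.8 µg they were 496, 379 and 363 at 4 h, 303, 307 and 393 at 12 h, and 262, 342 and 320.0 at 24 h. With 80 µg they were 150.5, 129 and 131 at 4 h, 62.1, 62.4 and 71.9 at 12 h, and 483, 466 and 452 at 24 h. The 0.8 µg groups overlapped the Control group at every time, whereas the 80 µg libraries at 4 h and 12 h lay below all of them. Between doses, the log2 fold change was -1.59 (SE 0.15, adjusted p = 1.43e-22 by DESeq2) at 4 h and -2.33 (SE 0.17, adjusted p = 1.05e-40) at 12 h. At 24 h the sign was turned, with a log2 fold change of 0.60 (SE 0.14, adjusted p = 0.00174) that stayed under the fold change threshold although the groups did not overlap.

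Within the 80 µg groups, Gata3 fell by 1.05 on the log2 scale from 4 h to 12 h (adjusted p = 1.93e-08) and then rose by 2.82 from 12 h to 24 h (adjusted p = 2.13e-63). The first of these calls was lost without replicate 1 of the 80 µg 4 h group, where the log2 fold change was -0.99. With 0.8 µg neither step was called. Ordered by mean, the 80 µg 24 h group (467 ± 15.8, SD, n = 3) stood highest, and the ranges of each pair of neighbours down to the 0.8 µg 24 h group (308 ± 41.5) overlapped. The 80 µg 4 h group (137 ± 11.9) and the 80 µg 12 h group (65.5 ± 5.59) followed, each separated from its neighbours.

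Il4 (ENSMUSG00000000869, chr11:53602982-53618669, minus strand) encodes the cytokine that both drives and is made by Th2 cells. All 21 libraries were at 0, out of 79513225 counts in all. A count of 0 allows up to 3 counts in a library, which is 0.48 CPM in the deepest and 1.28 CPM in the shallowest library, and this limit covers counting error only. Dose and time differences in Il4 were thus not detectable at this depth.

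Other genes of the Th2 programme were read from a list of 18. Of these, 5 were under 10 counts in all, among them Il5 with 4 counts, Il13 with 1 and Il9 with 0, and 10 were tested at each dose comparison. Between doses, 6 were called higher at 4 h, where 5.55% of all genes tested were called. At 12 h 3 were higher (2.73% of all genes) and at 24 h 1 (1.46%), with no other calls in the list. The median log2 fold change of the tested genes was 1.24, 0.67 and -0.0033 at the 3 times, beside -0.02, 0.01 and 0.01 over all genes tested. Maf, a factor that drives Il4 and is also expressed in other helper subsets, stood at 37.2 ± 19.2 normalised counts at the low dose and 476 ± 74.3 at the high dose at 4 h (log2 fold change 3.56), on either side of the Control level of 177 ± 58.5, and was higher at 12 h (2.20) and 24 h (1.53) too. Irf4, needed for several effector fates, was higher at 4 h (1.58) and at 12 h (1.01), the latter call being lost without replicate 1 or 3 of the 0.8 µg 12 h group or replicate 1 or 2 of the 80 µg 12 h group, at 0.91 to 0.96. Nfil3 was higher at 12 h (2.60) and at 4 h (2.36), with 1.42 ± 1.66 normalised counts at the low dose and 11.2 ± 4.83 at the high dose at 4 h. The 0.8 µg 4 h libraries held 0 to 3 counts of Nfil3 each, so its 4 h value is not an exact fold. Its 4 h call was lost without any of the 0.8 µg libraries or without replicate 2 of the 80 µg group, at adjusted p values of 0.0562 to 0.0984. Il1rl1, the IL-33 receptor, was at 0 in the 3 libraries of the 0.8 µg 4 h group and at 11.2 ± 9.55 with 80 µg, at least 3.29-fold higher against a floor of 3 counts per library. Its Control level was 10.4 ± 2.98. Stat6, which relays the IL-4 signal, differed by -0.68 at 4 h (adjusted p = 4.04e-07), under the fold threshold, and its receptor chain Il4ra by 0.36 (adjusted p = 0.103). Maf, Irf4 and Nfil3 belong to gene groups that the study chose on these samples, as do Gata3 and Rora, so their directions are not independent evidence.

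**Figure D2:**
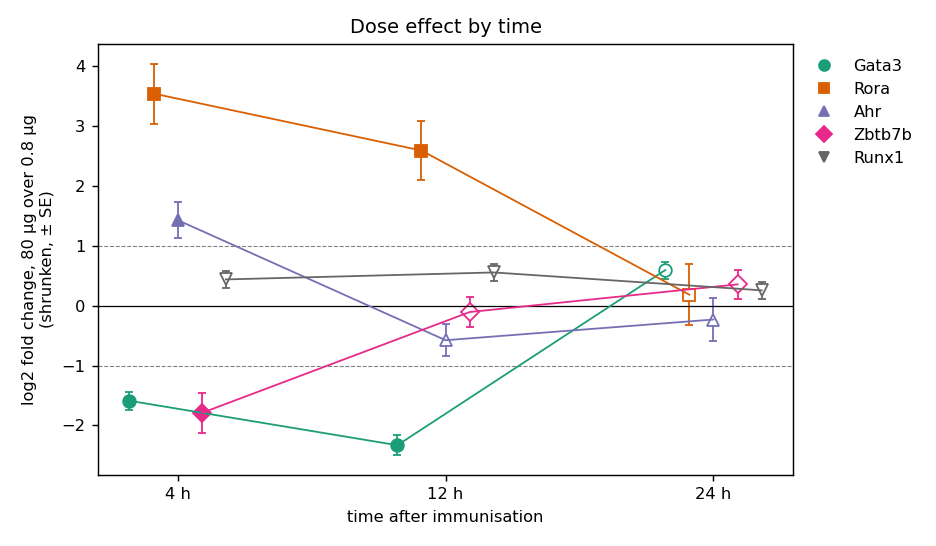
Shrunken log2 fold change of 80 µg over 0.8 µg (vertical axis, ± SE) at 4 h, 12 h and 24 h for the 5 detected members, with filled symbols for called differences and dashed lines at 1 and -1. Gata3 goes from -2.33 at 12 h to 0.60 at 24 h and Rora from 2.59 to 0.18, while Runx1 stays between 0.26 and 0.56.

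Rora (ENSMUSG00000032238) lies at chr9:68653786-69388246 on the plus strand. Its normalised counts were 127, 133 and 188 in the Control libraries. With 0.8 µg they were 104, 175 and 54.0 at 4 h, 109.8, 247 and 28.2 at 12 h, and 59.4, 77.4 and 127 at 24 h. With 80 µg they were 1681, 1427 and 1517 at 4 h, 747, 1079 and 832 at 12 h, and 104, 85.4 and 113 at 24 h. The 80 µg libraries at 4 h and 12 h lay above all others, and of the remaining 5 groups each overlapped its neighbours in the order of their means, whereas the 80 µg 24 h group lay below Control without overlap. Between doses the log2 fold change was 3.55 (SE 0.50, adjusted p = 1.06e-10) at 4 h, 2.59 (SE 0.50, adjusted p = 1.72e-05) at 12 h and 0.18 (SE 0.51, adjusted p = 0.919) at 24 h.

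The 12 h call depended on the fit. When only the 6 samples compared were modelled, the shrunken value was 0.76 (adjusted p = 0.0201), under the threshold, while the means were 128 ± 111 and 886 ± 172 normalised counts and edgeR gave 2.74. The 0.8 µg 12 h libraries spread widely, with a highest value 8.78 times the lowest. With 80 µg, Rora fell by 2.92 on the log2 scale from 12 h to 24 h (adjusted p = 3.76e-08), and from 4 h to 12 h the difference of -0.75 did not pass (adjusted p = 0.23). With 0.8 µg no time step was called.

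Ahr (ENSMUSG00000019256) lies at chr12:35497974-35535038 on the minus strand. Its normalised counts were 4.12, 6.08 and 4.28 in the Control libraries. With 0.8 µg they were 32.3, 29.0 and 34.5 at 4 h, 169.6, 147 and 93.9 at 12 h, and 21.4, 14.9 and 16.5 at 24 h. With 80 µg they were 105, 97.8 and 62.6 at 4 h, 80.4, 85.8 and 109 at 12 h, and 10.96, 16.9 and 16.02 at 24 h. Every immunised library lay above every Control library. At 4 h the 80 µg libraries were all above the 0.8 µg libraries (log2 fold change 1.43, SE 0.30, adjusted p = 6.25e-05). At 12 h the doses overlapped, at a log2 fold change of -0.58 (adjusted p = 0.239), as they did at 24 h (-0.23, adjusted p = 0.846). With 0.8 µg, Ahr rose by 2.06 from 4 h to 12 h (adjusted p = 1.19e-10) and fell by 2.89 from 12 h to 24 h (adjusted p = 3.03e-18). With 80 µg the first step was 0.05 (adjusted p = 0.903) and the second was a fall by 2.55 (adjusted p = 1.74e-14). The highest mean was thus that of the 0.8 µg 12 h group (137 ± 38.9), whose range overlapped that of the 80 µg 12 h group (91.7 ± 15.1).

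The Th17 programme was read from 18 genes, of which 17 had at least 10 counts. Between doses, 4 were higher and 1 lower at 4 h, where 5.55% of all genes tested were called. At 12 h 2 were higher (2.73% of all genes), and at 24 h 2 were higher and 1 lower (1.46%). Their median log2 fold change was 0.77 over the 14 tested at 4 h, 0.49 over the 14 at 12 h and 0.19 over the 13 at 24 h, beside the medians over all genes given above. Il21, a cytokine of Th17 and follicular helper cells, stood at 0.776 ± 0.689 normalised counts at the low dose and 153 ± 69.1 at the high dose at 4 h. At 12 h it stood at 2.39 ± 2.45 and 204 ± 42.0, and its fitted log2 fold change was 6.49, 5.97 and 3.898 at the 3 times. At 4 h and 24 h the 0.8 µg libraries held 0 to 1 counts of Il21 each, under the floor of 3 counts. The fitted values at these times are therefore not exact folds. Il6st, the signal-transducing chain of the IL-6 receptor, stood at 855 ± 72.5 and 2708 ± 175 at 4 h (1.66, adjusted p = 4.09e-48). Il21, like Rora, is a gene of the study's own groups.

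Among other Th17 genes, Hif1a, a hypoxia-responsive factor that also acts in Th17 differentiation, was higher at 4 h (1.86, adjusted p = 1.37e-37). Il1r1, the IL-1 receptor, was higher at 12 h (2.66) and 24 h (3.40). With 80 µg it stood at 119 ± 26.0 normalised counts at 12 h and 22.2 ± 13.3 at 24 h. The 0.8 µg 24 h libraries held 0 to 3 counts of Il1r1 each, not above the floor of 3 counts, so the 24 h value is not an exact fold. Tgfbr2, a chain of the TGF-β receptor, was lower at 4 h (-1.09), a call lost without replicate 2 or 3 of the 80 µg group, at -0.98 and -0.90. Nr1d2, a nuclear receptor of the circadian clock, was lower at 24 h (-1.62), a call lost when only the 6 samples were fitted, at -0.85. Il17a and Il17f, the cytokines that define Th17 cells, were near the floor. Il17a had 4, 5 and 5 counts in the 80 µg 4 h libraries, 1 count in replicate 1 of the 0.8 µg 4 h group and 0 elsewhere. Il17f had 3, 2 and 3 counts in the 80 µg 4 h libraries, 4 in all at 12 h and 4 in all at 24 h with 80 µg, and 0 in the 0.8 µg and Control libraries. Il22, a cytokine whose expression AHR promotes, had 18, 23 and 14 counts in the 80 µg 12 h libraries, 8 in all at 4 h and 8 in all at 24 h with that dose, and 2 in all over the 0.8 µg libraries. These 3 cytokines were given no adjusted p in the test for a change of the dose effect over time, and their counts are a description.

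Of the 12 genes of the Ahr pathway, 9 had at least 10 counts; the classic target genes Cyp1a1 and Cyp1b1 and the repressor Ahrr did not. Of the 8 tested between doses, the gene called was Tiparp, and only at 4 h, with medians over the 8 of -0.01, -0.08 and -0.20 at the 3 times. Over all genes tested, 5.55%, 2.73% and 1.46% were called. Tiparp, an AHR target that modifies AHR in turn, stood at 55.5 ± 13.9 at the low dose and 174 ± 37.9 at the high dose at 4 h (log2 fold change 1.62, adjusted p = 4.07e-07). Its Control level was 154 ± 13.4, so it was the 0.8 µg group that differed from Control (-1.45, adjusted p = 1.59e-06). Arnt, the partner of AHR on DNA, was lower than Control at 4 h and 12 h with each dose (-1.03 and -1.32 with 0.8 µg, -1.29 and -1.52 with 80 µg), while Ahr itself was higher in the same groups. In each of these groups, 3 genes of the list were called higher than Control. With 0.8 µg 4 were called lower at each time, and with 80 µg 3 at 4 h and 4 at 12 h. Over all genes tested, 39.8% and 36.8% were called against Control with 0.8 µg and 42.5% and 37.0% with 80 µg.

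Zbtb7b (ENSMUSG00000028042) lies at chr3:89377644-89394776 on the minus strand. Its normalised counts were 186, 135 and 194 in the Control libraries. With 0.8 µg they were 42.4, 34.3 and 56.1 at 4 h, 55.9, 68.4 and 99.8 at 12 h, and 107, 83.9 and 87.7 at 24 h. With 80 µg they were 12.7, 13.6 and 10.3 at 4 h, 86.8, 61.6 and 58.3 at 12 h, and 94.2, 133 and 129 at 24 h. Every immunised library lay below every Control library, and the 80 µg libraries at 4 h were the lowest of the 21. The log2 fold change between doses was -1.79 at 4 h (SE 0.34, adjusted p = 3.14e-06), -0.11 at 12 h (adjusted p = 0.91) and 0.36 at 24 h (adjusted p = 0.534). With 80 µg, Zbtb7b rose by 2.41 from 4 h to 12 h (adjusted p = 2.38e-12), and the step from 12 h to 24 h (0.78, adjusted p = 0.00494) was under the fold threshold. With 0.8 µg neither step was called.

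Runx1 (ENSMUSG00000022952) lies at chr16:92601466-92826149 on the minus strand. Its normalised counts were 463, 525 and 657 in the Control libraries. With 0.8 µg they were 395, 354 and 325 at 4 h, 172, 178 and 183 at 12 h, and 183, 222 and 258 at 24 h. With 80 µg they were 451, 506 and 501 at 4 h, 280.5, 257 and 248 at 12 h, and 264, 272 and 257 at 24 h. The 80 µg libraries were above the 0.8 µg libraries at 4 h and 12 h without overlap, and the doses overlapped at 24 h. The difference was small in each case, with log2 fold changes of 0.44 (SE 0.14, adjusted p = 0.0139), 0.56 (SE 0.14, adjusted p = 0.00369) and 0.26 (SE 0.14, adjusted p = 0.372), so that none was called. With 0.8 µg, Runx1 fell by 1.01 from 4 h to 12 h (adjusted p = 4.27e-11), a call lost without replicate 1 of either group, at -0.93 and -0.98, and at -0.996 when only the 6 samples were fitted. With 80 µg the same step was -0.89 (adjusted p = 6.47e-10), under the threshold.

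The genes with which Zbtb7b and Runx1 act were read from a list of 22, all of them tested. Between doses, 2 were higher and 5 lower at 4 h, where 5.55% of all genes tested were called. At 12 h 3 were lower (2.73% of all genes) and at 24 h 2 (1.46%). The list's medians were -0.28, -0.15 and 0.14. Cd4, the coreceptor whose silencer RUNX proteins bind, stood at 845 ± 122 normalised counts at the low dose and 219.9 ± 49.2 at the high dose at 4 h (log2 fold change -1.93, adjusted p = 8.46e-39), beside 1040 ± 75.9 in Control. At 24 h the Cd4 means were 925 ± 129 at the low dose and 1037 ± 38.5 at the high dose (0.16, adjusted p = 0.621). Cd8a, a gene that ThPOK represses, stood at 53.8 ± 6.93 normalised counts at the low dose and 3.84 ± 1.73 at the high dose at 12 h (-3.58, adjusted p = 2.91e-08), and was also lower with 80 µg at 24 h (-2.51, adjusted p = 0.00335). At 24 h Cd8a stood at 14.3 ± 0.79 at the low dose and 1.76 ± 1.59 at the high dose. Its 80 µg levels at 12 h and 24 h were near the floor of 3 counts. The 24 h call was lost when only the 6 samples were fitted, at -0.78. Cd8a was given an adjusted p without 2 of the 6 libraries only, in turn, and kept the call there. The 0.8 µg 12 h libraries, at 45.9 to 58.7, were above the Control range of 2.06 to 9.99. In that group Zbtb7b was called lower than Control (-1.19, adjusted p = 6.72e-06), and its difference between doses at 12 h did not pass the test. At 4 h Zbtb7b was also lower than Control, at -1.91 with 0.8 µg and -3.70 with 80 µg. Cd8a then stood at 4.54 ± 0.65 and 3.13 ± 1.75, against 6.72 ± 4.14 in Control. Cd8b1 in the 0.8 µg 12 h libraries, at 94.0 to 122, overlapped the Control range of 102 to 149.9. A link between Zbtb7b and the CD8 genes was not tested. Cd8b1 was lower with 80 µg at 12 h (-1.02), a call lost without replicate 3 of 0.8 µg or replicate 1 or 2 of 80 µg, at -0.92 to -0.90. The summed level of both CD8 markers was 43.6 to 51.3 CPM in the 0.8 µg 12 h libraries and 13.1 to 22.7 CPM in the 80 µg ones, and their part in the other results was not tested.

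Among the other genes of this list, Myb, a regulator of T cell progenitors and memory cells, stood at 686 ± 62.7 at the low dose and 61.0 ± 12.6 at the high dose at 4 h (-3.46, adjusted p = 1.62e-76), beside 70.0 ± 12.1 in Control. Tcf7 and Lef1, which act upstream of ThPOK in the thymus, were lower with 80 µg at 4 h (-1.38 and -1.16), as was the corepressor Tle4 (-1.44). Satb1, a chromatin organiser, was higher at 4 h (1.81), with a low-dose level of 2632 ± 643 and a high-dose level of 9311 ± 859 around 6014 ± 106 in Control. Runx2 was higher at 4 h (1.89), a call lost without replicate 1 or 2 of either dose, at adjusted p values of 0.0639 to 0.123. Tox, which is needed for CD4 lineage development, was lower at 12 h (-1.33) and 24 h (-1.40). Runx3, the RUNX factor of CD8+ cells, and Cbfb, the shared partner, were not called at any time between doses (-0.19 to 0.54 and -0.10 to 0.39).

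Regulators of the other CD4 subsets were read from 9 genes, all tested. At 4 h, 4 were higher and 1 lower with 80 µg, where 5.55% of all genes tested were called. At 12 h 2 were higher and 1 lower (2.73% of all genes), as at 24 h (1.46%). The list's median log2 fold change was 0.26, -0.31 and 0.05 at the 3 times. Tbx21, the Th1 regulator T-bet, was higher at each time (2.28, 1.49 and 1.95), as was Prdm1, which encodes Blimp-1 (2.86, 3.20 and 1.36). Prdm1 stood at 42.8 ± 18.9 in Control and was called lower than Control with 0.8 µg at each time (-3.53, -2.01 and -1.33). The 0.8 µg 4 h libraries held 1 to 5 counts of Prdm1 each, near the floor of 3 counts, so values that use them are not exact folds. The 24 h call of Prdm1 was lost without any of the 80 µg libraries or without replicate 1 or 2 of 0.8 µg, at adjusted p values of 0.0649 to 0.162. Eomes, the T-box factor of cytotoxic and memory cells, was lower at each time (-1.46, -2.84 and -2.47), while with 0.8 µg it was higher than Control at each (4.96, 5.71 and 2.82). NK cells express Eomes as well, and their marker sum was lower with 80 µg at 24 h, as given above, while it overlapped between doses at 4 h and 12 h. Stat4, which relays IL-12, was higher at 4 h (2.87), at 5.24 ± 4.46 normalised counts with 0.8 µg and 49.2 ± 3.54 with 80 µg, both below the Control level of 196 ± 32.7. Tbx21 and Stat4 are also among the study's own choices.

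**Figure D3:**
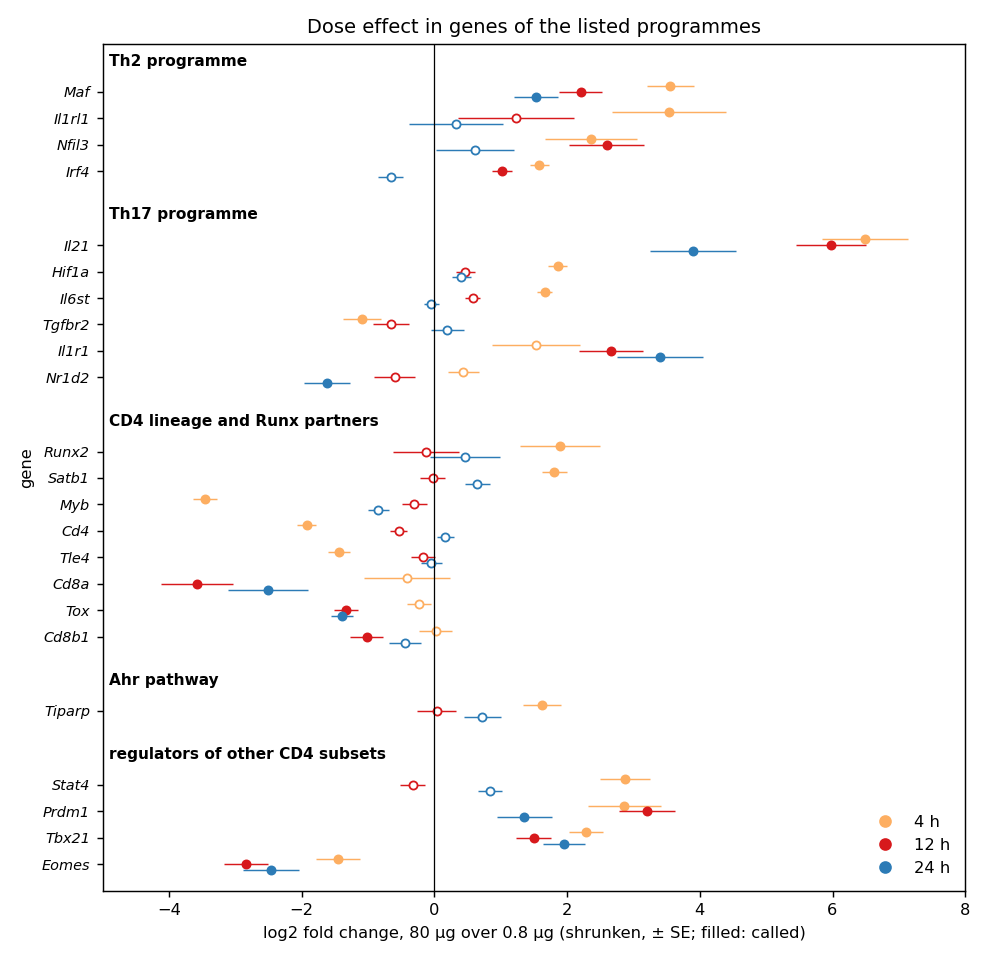
Shrunken log2 fold change of 80 µg over 0.8 µg (horizontal axis, ± SE) for the genes named from the 5 lists, at 4 h (orange), 12 h (red) and 24 h (blue), with filled symbols for called differences. Il21 lies furthest to the right at 6.49 at 4 h, and Cd8a furthest to the left at -3.58 at 12 h. The Il21 value at 4 h is fitted over 0.8 µg libraries under the floor of 3 counts and is not an exact fold.

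Each immunised group was then set against Control, to ask which regulators left the untreated level at either dose. Ahr was higher than Control in all 6 immunised groups, Zbtb7b was called lower in 4 and Runx1 in 4, and Gata3 and Rora were called with 80 µg at 4 h and 12 h only. With 0.8 µg, 2 members were called at 4 h, 3 at 12 h and 2 at 24 h, where 39.8%, 36.8% and 16.9% of all genes tested were called. With 80 µg, 4 were called at 4 h, 5 at 12 h and 2 at 24 h, where the backgrounds were 42.5%, 37.0% and 19.7%. Since these 6 comparisons share the Control libraries, they are given side by side only.

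**Figure D4:**
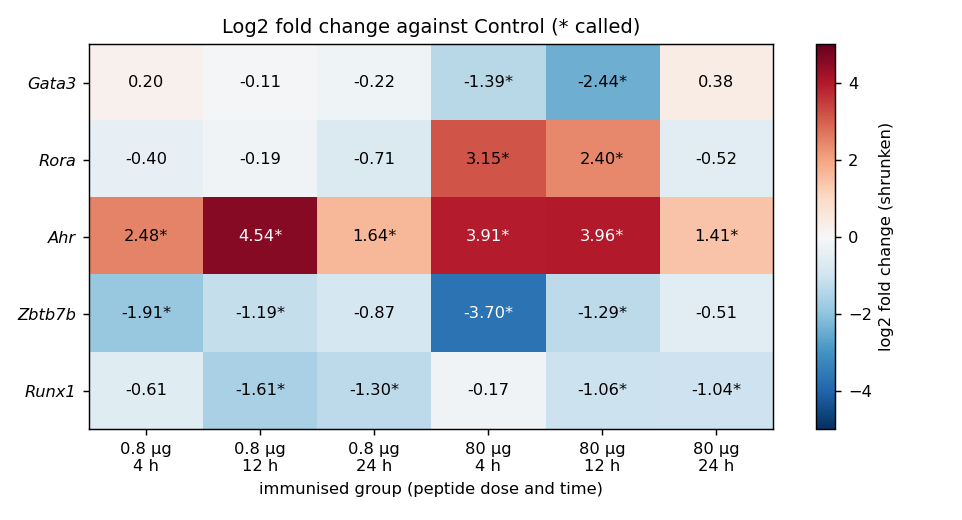
Shrunken log2 fold change of each immunised group (columns) against Control for the 5 detected members (rows), with the value in each cell, red for higher, blue for lower and an asterisk for called differences. The row of Ahr runs from 1.41 to 4.54, and the row of Gata3 is called in 2 cells, at -1.39 and -2.44. The Ahr values rest on Control libraries of 3 to 6 counts and are not exact folds.

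Ahr exceeded Control by 2.48, 4.54 and 1.64 on the log2 scale with 0.8 µg at 4 h, 12 h and 24 h, and by 3.91, 3.96 and 1.41 with 80 µg. The last of these was not called when only the 6 samples compared were fitted (1.27, adjusted p = 0.0879). The Control libraries held 3 to 6 counts of Ahr each, near the floor of 3 counts, so its values against Control are not exact folds. Zbtb7b differed by -1.91 and -1.19 with 0.8 µg at 4 h and 12 h and by -3.70 and -1.29 with 80 µg. At 24 h its differences of -0.87 (adjusted p = 0.00191) and -0.51 (adjusted p = 0.0795) were not called, although the first passed without replicate 2 of Control, at -1.004. Runx1 differed from Control by -1.61 and -1.30 with 0.8 µg at 12 h and 24 h and by -1.06 and -1.04 with 80 µg. The 80 µg calls were lost without replicate 3 of Control, the library with the highest normalised count of Runx1, at -0.92 and -0.90, and the 12 h call also with only the 6 samples fitted, at -0.97. At 4 h, Runx1 was at -0.61 (adjusted p = 2.55e-05, not called) with 0.8 µg and at -0.17 (adjusted p = 0.289) with 80 µg. Gata3 was at -1.39 and -2.44 with 80 µg at 4 h and 12 h and between -0.22 and 0.20 with 0.8 µg. With 80 µg at 24 h, Gata3 lay above Control without overlap, at 0.38 (adjusted p = 0.0258), under the fold threshold. Rora was at 3.15 and 2.40 with 80 µg at the same times and between -0.71 and -0.19 with 0.8 µg, and at -0.52 (adjusted p = 0.442) with 80 µg at 24 h. The B cell marker sum was higher in Control than in each immunised group without overlap, except the 0.8 µg 12 h group (6.70 to 42.4 CPM). The CD8 sum was 31.1 to 47.6 CPM in Control and lower without overlap in the 3 groups with 80 µg (13.1 to 28.8 CPM) and with 0.8 µg at 4 h (15.2 to 30.9 CPM). The NK cell sum was 1.70 to 3.08 CPM in Control, lower without overlap in all groups at 4 h, with 0.8 µg at 12 h and with 80 µg at 24 h, and higher with 0.8 µg at 24 h. The dendritic cell sum was 1.22 to 2.46 CPM in Control and lower without overlap with 80 µg at 12 h and 24 h. The part of these sums in the comparisons with Control was not tested.

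Between successive times, 2 members were called from 4 h to 12 h with 0.8 µg (background 19.6%) and 1 from 12 h to 24 h (25.3%). With 80 µg, 2 were called from 4 h to 12 h (24.2%) and 3 from 12 h to 24 h (26.6%). At each step the gate changed as well. Whether the dose effect itself changed with time was tested with a likelihood ratio test in DESeq2 on the 18 immunised libraries, in which 9.05% of 11143 genes passed. Of the members, 4 passed: Gata3 (adjusted p = 5.80e-38), Zbtb7b (adjusted p = 4.72e-05), Ahr (adjusted p = 5.49e-05) and Rora (adjusted p = 0.00145). Runx1 did not (adjusted p = 0.62), and its 3 dose effects lay within 0.30 of each other on the log2 scale. Cd4 and Myb also passed (adjusted p = 2.69e-21 and 3.66e-36), whereas Il21 did not (adjusted p = 0.572). The 0.8 µg libraries held 0 to 1 counts of Il21 each at 4 h and 24 h, so its result does not show an unchanged dose effect.

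The genes whose profile was most like that of each member were taken by Pearson's r over the 21 libraries on the deposited rlog values, among the 8752 genes that averaged 20 or more normalised counts. The libraries share group, gate and depth differences, so r is a description. For Gata3 these were Stap1 (0.84), Rassf3 (0.83) and Kcnn4 (0.83), the last a calcium-activated potassium channel of T cells. For Rora they were Ptpn1 (0.94), a tyrosine phosphatase, Gm12534 (0.92) and Malt1 (0.89), a protease of antigen receptor signalling. Gm12534 was at 0 in Control and in the 0.8 µg groups. With 80 µg it stood at 147 ± 19.0 normalised counts at 4 h, 86.1 ± 20.2 at 12 h and 2.16 ± 1.53 at 24 h. It met the mean of 20 only through the 4 h and 12 h groups, where Rora was high. For Runx1 the most alike genes were the histone deacetylase Hdac4 (0.91), Gm37766 (0.90) and Ankrd12 (0.89). For Zbtb7b they were Fam168a (0.96), Dock8 (0.95), an exchange factor of migrating lymphocytes, and Vps13c (0.95), and for Ahr they were Nudcd1 (0.95), Gfm1 (0.95), a mitochondrial elongation factor, and the clathrin heavy chain Cltc (0.95). Among the members, Gata3 and Rora had the most negative r (-0.82), followed by Rora and Zbtb7b (-0.65) and by Zbtb7b and Ahr (-0.62), and the highest were those of Rora and Ahr (0.48) and of Gata3 and Zbtb7b (0.42).

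Annotated neighbours could take reads from the members if strand was not used in counting. Exons of Gata3, Rora, Runx1 and Zbtb7b overlap antisense genes, those of Ahr a long noncoding RNA on the opposite strand, and Gata3 also overlaps 9230102O04Rik on its own strand. The nearest of these overlaps lies 12.1 kb from the annotated 3′ end of Runx1, 14.3 kb from that of Zbtb7b and 20.3 kb from that of Gata3. It lies 24.0 kb from that of Rora and 36.6 kb from that of Ahr. Read positions were not examined, and whether reads of these neighbours entered the members' counts was not tested. Of the overlapping genes in the count table, Gm15417 at Zbtb7b had 181 counts over all libraries, 9230102O04Rik had 12, and the others had 0.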

How the data were processed

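Per the labels and the study's methods, RNA of sorted CD4+ T cells was made into QuantSeq 3′ mRNA libraries, and reads merged over 4 lanes were trimmed with Bbduk, aligned with STAR 2.5.2a to GRCm38 (mm10) and counted per gene with HTSeq. The deposited counts are these raw counts, not normalised. Which annotation release and strand setting were used, and whether molecular identifiers were counted, is not given in the sources used here. The deposited log2 values are the authors' rlog transformation from DESeq2, and served here only for likeness between genes.

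Genes with at least 10 counts over all 21 samples were kept. DESeq2 1.42.0 in R 4.3.3 fitted a coefficient per group to all 21 samples (Wald test, normal-prior shrinkage, Benjamini-Hochberg adjustment), with filter and thresholds after the study's methods: adjusted p under 0.05 and a log2 fold change beyond 1. A likelihood ratio test of the dose and time interaction used the 18 immunised samples. Each gene had a single dispersion, shared by all groups in the fit, with 3 mice per group. The p-values therefore do not measure the spread of the compared groups alone, except where only their 6 samples were fitted. The scripts were tested on simulated data. Library totals of 2352800 to 6244279 counts put the limit of a 0 at 0.48 to 1.28 CPM.

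The members and the 5 gene lists were chosen with earlier results of these data known, and 1 gene of the Th17 list is not reported here. All members are described; from each list, up to 3 genes per direction were named by the largest shrunken fold change among called genes in each dose comparison, and other genes named (Stat6, Il4ra, Il5, Il13, Il9, Il17a, Il17f, Il22, Arnt, Tcf7, Lef1, Runx3, Cbfb, Cyp1a1, Cyp1b1 and Ahrr) were picked after their values were seen. Likeness used the 3 genes with the highest Pearson's r. Alternatives were edgeR 4.0.16 (quasi-likelihood, TMM), DESeq2 with TMM library sizes, no or a stricter count filter, unshrunken values, adjusted p alone, only the 6 samples compared, a replicate block and leaving out each library. Genes were placed with GENCODE vM21 (GRCm38, positions counted from 1).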

Additional observations from a re-analysis of the deposited data

Results flagged for a closer look

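The effect of dose differed between the 3 times for 4 members in the DESeq2 likelihood ratio test over all genes, which 9.05% of 11143 genes passed. For Gata3 the adjusted p was 5.80e-38, with dose effects of -1.59, -2.33 and 0.60 on the shrunken log2 scale at 4 h, 12 h and 24 h. For Rora it was 0.00145, with effects of 3.55, 2.59 and 0.18. The sign of the last was not stable, at -0.0557 to 0.458 with single libraries left out. For Zbtb7b it was 4.72e-05 (-1.79, -0.11 and 0.36), and for Ahr it was 5.49e-05 (1.43, -0.58 and -0.23). The sorting gate changes with time in both doses, so a change over time cannot be told apart from a change of gate. With 3 libraries a group, single libraries were not examined as outliers.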

How the results depend on the processing

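Over the 13 comparisons and the interaction test, the number of members called was 0 to 5 in each, and edgeR, DESeq2 with TMM library sizes, either count filter and unshrunken values gave the same numbers. When only the 6 samples compared were fitted, 1 member in place of 2 was called between doses at 12 h (Rora lost, at 0.76), 1 in place of 2 with 80 µg at 24 h against Control (Ahr lost, adjusted p = 0.0879) and 1 in place of 2 with 0.8 µg at 12 h against 4 h (Runx1 lost, at -0.996). That fit also called 4 in place of 5 with 80 µg at 12 h against Control, and it lost Nfil3 and Tgfbr2 at 4 h, Irf4 and Cd8b1 at 12 h, and Nr1d2, Cd8a and Prdm1 at 24 h among the other genes named between doses. With the adjusted p alone, 5, 3 and 1 members in place of 4, 2 and 0 were called between doses at 4 h, 12 h and 24 h. The added ones were Runx1, Runx1 and Gata3. Over all genes tested, 11.3%, 6.08% and 5.13% passed on the adjusted p alone at these times. Leaving out single libraries gave 4 to 5 members with 80 µg at 12 h against Control (4 without Control replicate 3), 2 to 3 with 0.8 µg at 24 h against Control (3 without Control replicate 2), 1 to 2 with 80 µg at 24 h against Control (1 without Control replicate 3), 1 to 2 with 0.8 µg at 12 h against 4 h (1 without replicate 1 of either group) and 1 to 2 with 80 µg at 12 h against 4 h (1 without replicate 1 of the 4 h group).

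Signs turned only for differences that no setting called. For Runx1 with 80 µg at 24 h against 12 h, edgeR gave -0.000498, TMM library sizes -0.000452, the 6 samples alone -0.0744 and single libraries left out -0.0222 to 0.0640. Leaving out single libraries also gave -0.299 to 0.140 for Zbtb7b and -0.0557 to 0.458 for Rora between doses, at 12 h and 24 h, and -0.133 to 0.201 for Ahr with 80 µg at 12 h against 4 h. With 0.8 µg, Rora ranged over -1.01 to 0.265 at 12 h against Control, -0.605 to 0.673 at 12 h against 4 h and -0.994 to 0.286 at 24 h against 12 h, and Gata3 over -0.194 to 0.0143 at 24 h against 12 h. The cause of these shifts was not tested.

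Replicate numbers were shared by the groups, but only 33 of 63 same-numbered pairs had deviations correlated above 0.1 (median r 0.22, against -0.18 for 126 pairs of other numbers) and 3 of 21 samples correlated best with their own number, so the numbers were not taken to pair mice. With the replicate block, 4, 2 and 0 members were called between doses at 4 h, 12 h and 24 h, and no call of a gene examined changed. Over all genes, the calls between doses at 12 h and 24 h were 312 and 158, and 139 and 78 with the 6 samples alone. Without replicate 3 of 0.8 µg, 94 of 133 calls at 24 h were higher, in place of 87 of 158. The adjusted p alone gave 1291, 696 and 556 at the 3 times in place of 635, 312 and 158, 4534 and 5030 in place of 2182 and 2611 with 0.8 µg and 80 µg at 24 h against Control, 4794 and 5649 in place of 2528 and 3423 over the time steps with 0.8 µg, and 5401 and 5891 in place of 3127 and 3599 with 80 µg. Genes most like a member by Spearman's rho or by group means shared 0 to 2 of the 3 named. Depth limits Il4, Il17a and Il17f, which stood at 0 to 5 counts in every library.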

Other observations

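The spread of Rora between libraries differed between groups. In the 0.8 µg groups its coefficient of variation was 54.9% at 4 h, 86.3% at 12 h and 39.8% at 24 h, above that of 99.8%, 99.9% and 97.9% of the genes that averaged 50 or more normalised counts in the same group (5904, 6081 and 6619 genes). In the 80 µg groups it was 8.4%, 19.4% and 14.1%, at the 43.1, 76.4 and 63.5 percentiles, and in Control 22.8%, at the 85.2 percentile. With 0.8 µg, replicate 2 was the highest and replicate 3 the lowest library at 4 h and 12 h, while at 24 h replicate 3 was the highest. The coefficient of variation of Runx1 ranged from the 4.9 percentile in the 80 µg 24 h group (2.8%) to the 73.6 percentile in Control, and that of Gata3 from the 7.3 percentile in the 80 µg 24 h group (3.4%) to the 78.4 percentile in the 0.8 µg 4 h group (17.6%). Each value rests on 3 libraries.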
